A study of Homo sapiens with 4 samples.

Results

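Cytosolic and mitochondrial chaperones fold, refold and assemble proteins. In the cytosol, J-domain proteins (HSP40) bring unfolded clients to HSP70 and stimulate its ATPase, while HSP110 and several BAG proteins release the nucleotide. STIP1 passes clients on to HSP90, and the ring-shaped TRiC complex encloses actin, tubulin and other clients. Mitochondria hold their own HSP70 (HSPA9) and the HSP60-HSP10 chamber (HSPD1 and HSPE1). Many of these genes are driven by the transcription factor HSF1, and tumour cells often carry high chaperone levels. The 89 genes described here were taken from protein-coding symbols of the HSP70, HSP110, HSP90, HSP60, HSP10 and small HSP families, DNAJA, DNAJB and DNAJC, TRiC subunits, BAG1 to BAG6, STIP1 and AHSA1, out of 20056 protein-coding genes in the gene table. The endoplasmic reticulum genes HSPA5, HSP90B1, DNAJB9 and DNAJC3 were left out, but the symbols still took other residents of that compartment, such as DNAJB11, DNAJC1, DNAJC10 and HSPA13. They also took HSPBP1 and HSPBAP1, which bind chaperones, and the readthrough genes HSPE1-MOB4 and DNAJC25-GNG10.

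The data came from HCCLM3, an established human hepatocellular carcinoma line of wild-type genotype with no other treatment in the labels. RNA bound to YTHDF2, a cytosolic reader of N6-methyladenosine in mRNA that promotes deadenylation, was immunoprecipitated (RIP) and sequenced beside input RNA, with 2 libraries labelled YTHDF2-RIP and 2 labelled YTHDF2-Input. The deposited result is 1 list of 14858 peaks with no value for any single library, so no spread between replicates, sequencing depth or test between groups can be given, and no pulldown with a control antibody is among the 4 libraries. All folds below are the authors' enrichment of RIP over the peak caller's background at a summit, and a peak passed here when the authors' q was 0.01 or less (−log10 q of at least 2). The interval after a fold is the 95% Poisson interval of the number of RIP fragments recovered at that summit, with the background held fixed, and covers counting error only. A gene without a peak has no value in the list, which says nothing about its level.

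Of the 89 genes, 41 (46.1%) held at least 1 peak and 28 (31.5%) held a passing one. Among all 20056 protein-coding genes, 34.7% held a peak and 18.5% a passing peak. Of genes that held any peak, 68.3% of the chaperone genes had a passing one, against 53.2% of all protein-coding genes. Peaks were given here to the gene that holds them; by the gene the list names, which is the one with the nearest start, 17 of the 28 passed and 6 others did (23 in all). The chaperone genes held 70 peaks and 45 passed (64.3%, 95% Clopper-Pearson interval 51.9 to 75.4), while 40.8% of the 12240 peaks in all protein-coding genes passed. The lead peak of a gene is the one of lowest q. Its median fold was 2.54 over the 41 genes (95% interval of the median by order statistics, 2.24 to 2.98) and 2.50 over 6960 protein-coding genes with a peak. The fold of the chaperone genes was therefore close to that of all genes, whereas their lead peaks rested on more fragments, at the median 73 RIP fragments on a background of 31.1, against 29 on 11.6. A peak of many fragments passes the q at a lower fold, so the higher share of passing peaks stands beside this difference in fragment number, and its part in the share was not tested.

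**Figure D1:**
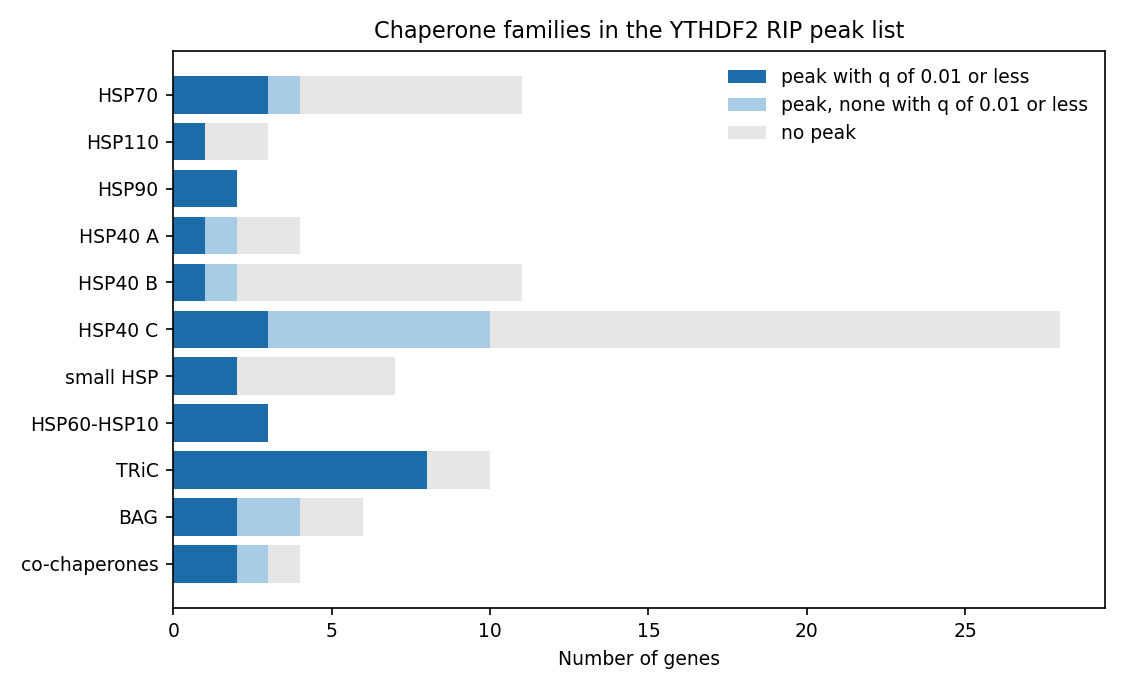
Number of genes in each chaperone family (horizontal bars, count of genes) with a passing peak (q at most 0.01), with only peaks that did not pass, or with none. TRiC has 8 passing genes of 10, HSP90 2 of 2, and the DNAJC family 3 of 28.

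All 11 families had a gene with a passing peak, but the shares differed. J-domain genes made up 43 of the 89, and 5 of them (11.6%) had a passing peak, against 23 of the 46 other genes (50%). Among all protein-coding genes in the gene table the share was 18.5%. The 5 J-domain genes include DNAJA3, whose only peak lies on an alternative contig. At the median, the 19 peaks of J-domain genes rested on 11 fragments and a background of 1.5, the 51 peaks of the other genes on 113 fragments and a background of 50.1. Both numbers were thus lower at the J-domain peaks, and their part in the lower share was not tested.

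**Figure D2:**
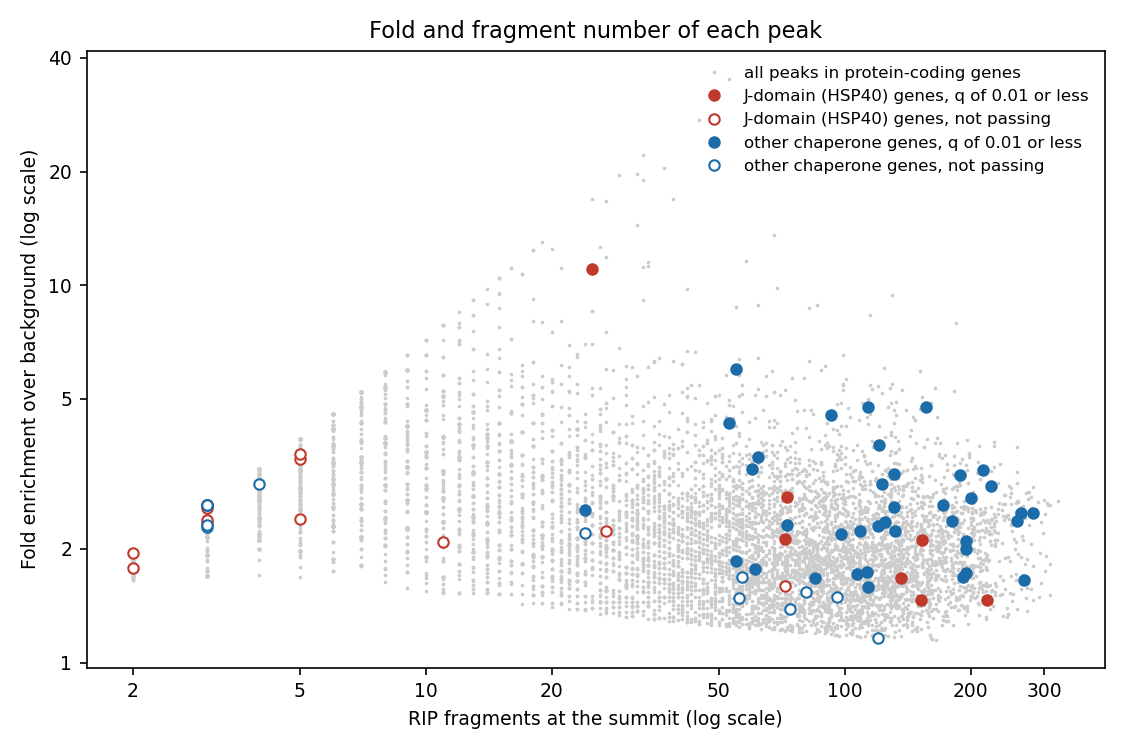
Fold enrichment against RIP fragments at the summit (both axes logarithmic) for every peak in a protein-coding gene (grey) and for chaperone genes (coloured, filled where q is 0.01 or less). The 19 J-domain peaks have a median of 11 fragments and the 51 others one of 113. In each of the 2 sets 6 peaks have 4 or fewer fragments.

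A strict form of the binding motif of HSF1 was counted in the promoters, a measure outside the RIP values. Most chaperone genes did not hold this form in the windows searched. It was searched as 3 alternating units, TTCNNGAANNTTC or its reverse complement GAANNTTCNNGAA, in RefSeq promoter windows (250 bases before to 50 after a transcript start, GRCh38.p14; a gene can have several windows). Of the 80 chaperone genes with a promoter sequence, 7 (8.75%) held it in at least 1 window, against 0.537% of 15843 protein-coding genes. Of the 24 with a passing RIP peak 4 held it (16.7%, 95% Clopper-Pearson interval 4.74 to 37.4). Of the 56 without one 3 did (5.36%, 1.12 to 14.9), namely HSPA6, DNAJB6 and DNAJA1, which held no peak at all. The 2 intervals overlap, and a link between the motif and the RIP peaks was not tested. Only the stretches of the 4 genes with passing peaks are shown, with the first match in capitals and the strand of the gene. Each distance counts from the transcript start of that window, which in these 4 genes lies downstream of the outermost start of the gene, so that each match lies inside the gene span (by 52617 bases in HSP90AA1, 1584 in HSP90AB1, 189 in HSPD1 and 96 in HSPA8). HSP90AB1, HSPA8 and HSPD1 hold 2 matches each, and matches on the 2 strands can overlap. A match is a description of letters and no evidence of binding. Imperfect units and sites outside the windows were not counted, so a gene without a match may still hold an HSF1 site.
HSP90AA1, chr14:102087112-102087140, minus strand, match starting 88 bases before the transcript start at 102087044: gagggttcTTCCGGAAGGTTCgggaggct
HSP90AB1, chr6:44247770-44247798, plus strand, 165 bases before the start at 44247943: ggagcaggTTCTGGAAGATTCatgggctc
HSPA8, chr11:123062346-123062374, minus strand, 230 bases before the start at 123062136: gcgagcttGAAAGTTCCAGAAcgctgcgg
HSPD1, chr2:197500065-197500090, minus strand, 245 bases before the start at 197499840: gcattTTCTGGAAAGTTCtggaaccg

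Both cytosolic HSP90 genes held several passing peaks. HSP90AA1, the stress-inducible isoform, held 4, which spanned its transcript from the first peak on chromosome 14 at 102085540 to 102086124 (hg38), 920 bp from the start site named in the list, to the 3' UTR at 102080879 to 102081628. From the 5' side their folds were 2.50 (2.21 to 2.82), 2.37 (2.09 to 2.68), 1.69 (1.46 to 1.94, exon 7 of 11) and 1.73 (1.5 to 1.99), over 263, 258, 192 and 195 fragments. The intervals of the first pair lie above those of the last pair, so enrichment was higher toward the 5' side of this gene, over backgrounds that were alike (105, 108, 113 and 112). HSP90AB1, the constitutive isoform, held 3 peaks on chromosome 6, at 44249572 to 44250747, 44251592 to 44252504 and 44253262 to 44253985. Their folds were 2.73 (2.36 to 3.13), 2.94 (2.57 to 3.35) and 2.10 (1.81 to 2.41) over 200, 224 and 195 fragments, with a −log10 q of 38.0 at the second. The peak closest to the 3' end had the lowest fold of the 3; its interval lies below that of the middle peak and overlaps narrowly with that of the first. These peaks carry the promoter class since they lie within 3 kb of a start site, for 2 of them that of the microRNA gene MIR4647.

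Among HSP70 genes, HSPA8, the constitutive cytosolic form, had the lowest q, and HSPA14 the highest passing fold. The peak of lowest q in HSPA8 (chromosome 11, 123057331 to 123057705), with the summit 91 bp from the 3' end of the gene, had a fold of 3.24 (2.83 to 3.71) over 214 fragments and a −log10 q of 42.2, rank 63 of all peaks in the list. The other 2 peaks of HSPA8, at 123058071 to 123058668 and 123059332 to 123059795, had folds of 2.0 (1.73 to 2.30) and 1.65 (1.46 to 1.86) over 195 and 268 fragments, and each overlapped an intronic C/D box snoRNA gene, SNORD14E and SNORD14C. The intervals of these 2 lie below that of the peak at the 3' end. Peaks over snoRNA genes were 3 of the 70 chaperone peaks (4.29%, 0.893 to 12) and 0.229% of all peaks in protein-coding genes, and whether the snoRNAs add fragments there was not tested. HSPA9, the mitochondrial HSP70, had passing peaks on chromosome 5 of 2.23 (1.83 to 2.68; 138556220 to 138556560) and 1.72 (1.41 to 2.07, in the 3' UTR). Its remaining peak, near the 5' end, had 1.48-fold and did not pass. HSPA14, a ribosome-associated HSP70, had a passing peak of 3.50 (2.70 to 4.47) on chromosome 10 at 14840096 to 14840417. The −log10 q of this peak was 13.3 and that of the HSPA9 lead peak 10.1. Both HSPA14 peaks lie in the span shared with MSANTD7 and cannot be told apart between the genes. The stress-inducible HSPA1A had 1 peak of 4 fragments on an alternative contig of chromosome 6, 2.98-fold, which did not pass. HSPA1A and HSPA1B are near-identical, so their reads are uncertain, and HSPA1B, HSPA1L, HSPA2, HSPA6, HSPA12A, HSPA12B and HSPA13 had no peak. Of the HSP110 genes, which act as nucleotide exchange factors, HSPA4 passed in its 3' UTR (chromosome 5, 133104038 to 133104637) with 1.77-fold (1.36 to 2.27) over 61 fragments and a −log10 q of 2.18, and its intron peak of 3 fragments (2.61-fold) did not pass. HSPH1 and HSPA4L had no peak.

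The cytosolic chaperonin TRiC was the family with the most passing genes. All 8 subunits of the ring (TCP1, CCT2, CCT3, CCT4, CCT5, CCT6A, CCT7 and CCT8) held a passing peak, 13 passing peaks of 14 in all, with a median lead-peak fold of 3.06 and 121.5 fragments. Of all protein-coding genes in the gene table, 18.5% held a passing peak. By the gene named in the list, 4 of the 8 passed (CCT2, CCT5, CCT7 and CCT8), since every peak inside TCP1, CCT3, CCT4 and CCT6A bears the name of another gene there. The 2 further genes of the family by symbol, CCT6B, which is testis-enriched, and CCT8L2, had no peak. CCT2 carried the highest fold of the subunits, 5.99 (4.54 to 7.76) over 55 fragments, with the summit 29 bp from the 3' end (chromosome 12, 69601361 to 69601746). Its peak near the 5' end had 2.19 (1.78 to 2.67) and its peak in exon 13 of 16 had 1.54 (1.22 to 1.91, not passing), both with intervals below that of the 3' peak. CCT8 showed 3 passing peaks on chromosome 21, 4.30 (3.24 to 5.60) at the 3' end (29056139 to 29056470), 2.36 (1.97 to 2.81) in exon 12 of 16 and 3.25 (2.49 to 4.17) in exon 7. The interval of the 3' peak clears that of exon 12 and overlaps that of exon 7. CCT4 had 4.54-fold (3.67 to 5.55) in its 3' UTR on chromosome 2 at 61868258 to 61868585 over 93 fragments, and CCT7 had 2.97-fold (2.47 to 3.54) in its 3' UTR, 60 bp from the end. CCT6A had 3.16 (2.64 to 3.74; chromosome 7, 56058597 to 56058961) and 2.58 (2.16 to 3.06). TCP1 had 2.61 (2.24 to 3.03; chromosome 6, 159778849 to 159779193) and 1.74 (1.44 to 2.09). The stronger TCP1 peak lies where TCP1 and the acetyl-CoA acetyltransferase gene ACAT2 overlap and cannot be told apart between them. CCT3 (2.30, 1.91 to 2.74, exon 7 of 12) and CCT5 (2.24, 1.87 to 2.65, exon 5 of 11) had a single exon peak each. The lead peaks of CCT4, CCT6A and TCP1 had the lowest q of the family, with a −log10 q of 28.2, 24.6 and 23.4, and those of CCT2 and CCT8 had 22.5 and 15.1. Ordered by lead peak, CCT2, CCT4 and CCT8 had overlapping intervals, and all 3 lie above the intervals of TCP1, CCT3 and CCT5.

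**Figure D3:**
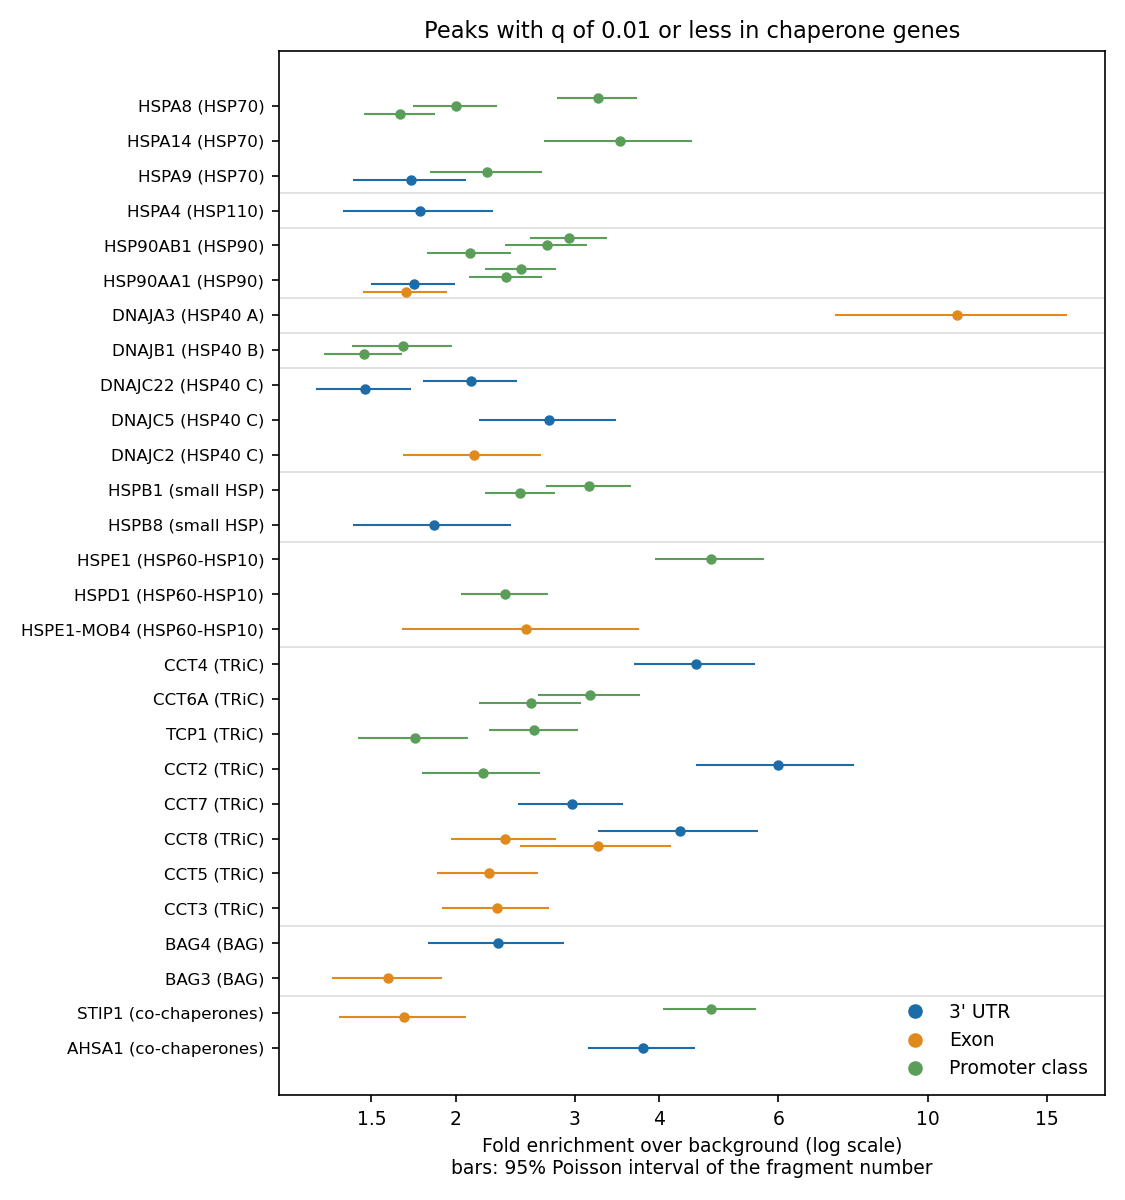
Fold enrichment (logarithmic axis) of the 45 passing peaks in the 28 chaperone genes, grouped by family and coloured by the deposited annotation class. Bars are 95% Poisson intervals of the fragment number. DNAJA3 stands at 11, and CCT2, HSPE1, STIP1, CCT4 and CCT8 have peaks above 4.

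The mitochondrial chaperonin pair also passed. HSPE1 (HSP10) had 4.77-fold (3.94 to 5.72) over 114 fragments and a −log10 q of 36.5 on chromosome 2 at 197503218 to 197503579, with the summit 103 bp from its 3' end. HSPD1 (HSP60), its head-to-head neighbour, had 2.37-fold (2.04 to 2.74) over 180 fragments at 197486418 to 197486858, 113 bp from its 3' end. This peak overlaps the snoRNA gene SNORA105B. The interval for HSPE1 lies above that for HSPD1, and its background was lower (23.1 against 75.5). The remaining gene by symbol, HSPE1-MOB4, had 2.54-fold (1.66 to 3.73) over 24 fragments in exon 6 of 9 (197540382 to 197540715, −log10 q 2.37), for which the list gives MOB4 as the nearest gene. That peak lies beyond the 3' end of HSPE1 and cannot be told apart between the readthrough gene and MOB4. It still counts HSPE1-MOB4 among the 28 genes with a passing peak. The HSPE1 peak also lies inside the span of the readthrough gene.

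Co-chaperones of HSP90 held some of the strongest peaks. STIP1, which bridges HSP70 and HSP90, had the lowest q of all the chaperone genes, with a −log10 q of 49.7 and rank 18 in the whole list. That peak, on chromosome 11 at 64204220 to 64204659 with the summit 171 bp from the 3' end of STIP1, had 4.76-fold (4.05 to 5.57) over 156 fragments. The list names its gene as FERMT3, the neighbour whose start is nearest, and classes it as promoter. The STIP1 peaks in exon 10 of 14 (1.68, 1.34 to 2.07, passing) and exon 3 (1.49, 1.21 to 1.82, not passing) had intervals far below it. AHSA1, an activator of the HSP90 ATPase, had 3.78-fold (3.14 to 4.51) over 121 fragments in its 3' UTR on chromosome 14 at 77469241 to 77469590, 92 bp from the end. HSPBP1, an exchange factor for HSP70, had no peak, and HSPBAP1 had an intron peak of 3 fragments on chromosome 3 at 122753135 to 122753469 that did not pass (2.31-fold, 0.937 to 5.65).

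Among small heat shock proteins, HSPB1 (HSP27) had 2 passing peaks on chromosome 7, one with the summit 14 bp from its 3' end (76303834 to 76304455), with 3.15-fold (2.72 to 3.63) over 189 fragments, and one toward the 5' side (76302896 to 76303293), with 2.49-fold (2.21 to 2.80) over 281 fragments. The intervals of the pair overlap slightly. The second rests on the most fragments of any chaperone peak, where the highest number in the whole list was 324. HSPB8, the partner of BAG3 in selective autophagy, had 1.86-fold (1.41 to 2.41) in its 3' UTR with a −log10 q of 2.37 (chromosome 12, 119194332 to 119194797). HSPB2, HSPB3, HSPB6, HSPB7 and HSPB9 had no peak. Of the BAG genes, BAG4 passed with 2.31-fold (1.82 to 2.90) in its 3' UTR on chromosome 8 at 38212022 to 38212387. A second 3' UTR peak of BAG4, of 2.20, did not pass. BAG3 passed in exon 3 of 4 (chromosome 10, 119672518 to 119672832) with only 1.59-fold (1.31 to 1.91) over 114 fragments, and its 3' UTR peak of 1.16-fold (0.963 to 1.38) did not. BAG5 (1.39-fold) did not pass, nor did the 3 peaks of BAG6, each of 3 fragments in an exon on a different alternative contig of chromosome 6, at 2896410 to 2896724, 3117241 to 3117555 and 2981833 to 2982147 (2.61, 1.06 to 6.37, for the first pair and 2.29, 0.925 to 5.58). BAG1 and BAG2 had no peak.

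J-domain genes passed in 5 cases. DNAJA3, the mitochondrial J protein, had the highest fold of all the chaperone genes, 11 (7.28 to 16.1) over 25 fragments and a background of 1.36, in exon 2 of 11 at 136762 to 137133 of an alternative contig of chromosome 16. It had no peak on the main chromosome, so this value rests on a copy of the locus, and how reads were shared between the copies is not stated by the labels or the list. DNAJB1 (HSP40), the stress-inducible partner of HSPA1A and HSPA8, had 2 passing peaks of low fold on chromosome 19, 1.67 (1.41 to 1.98; 14514677 to 14515267) and 1.46 (1.27 to 1.67; 14516383 to 14516792), over 136 and 219 fragments and the high backgrounds of 80.9 and 149.6. DNAJC22 had 2 passing 3' UTR peaks on chromosome 12, 2.11 (1.79 to 2.47; 49352999 to 49353401) and 1.47 (1.24 to 1.72). DNAJC5, the cysteine string protein of synaptic vesicles, had 2.75-fold (2.16 to 3.45) in its 3' UTR on chromosome 20 at 63935759 to 63936073, beside an intron peak of 3 fragments that did not pass. DNAJC2, a ribosome-associated J protein that works with HSPA14, had 2.13-fold (1.67 to 2.67) in exon 15 of 17 on chromosome 7 at 103315480 to 103315842.

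A further 9 J-domain genes held a peak without passing. DNAJA2 (1.59-fold over 72 fragments in exon 8 of 9, chromosome 16, 46958759 to 46959113) and DNAJC21 (2.23-fold over 27) came closest, with a −log10 q of 1.44 and 1.77. DNAJC1 held 3 peaks in intron 8 of 11 on chromosome 10, 3.47-fold (1.52 to 7.33; 21868360 to 21868736) over 5 fragments and 2.57 (1.04 to 6.27) and 2.34 (0.948 to 5.72) over 3 each. DNAJC16 (3.57-fold) rested on 5 fragments, DNAJC27 (2.40-fold) also on 5 and DNAJC12 (2.08-fold) on 11. DNAJB4 (2.61-fold), DNAJC13 (1.79-fold) and DNAJC24 (1.96-fold) rested on 2 or 3 fragments in introns, for DNAJB4 on chromosome 1 at 77995888 to 77996202. No peak was listed for DNAJA1, DNAJA4, DNAJB2, DNAJB5, DNAJB6, DNAJB7, DNAJB8, DNAJB11, DNAJB12, DNAJB13 and DNAJB14. The same held for DNAJC4, DNAJC5B, DNAJC5G, DNAJC6, DNAJC7, DNAJC8, DNAJC9, DNAJC10, DNAJC11, DNAJC14, DNAJC15, DNAJC17, DNAJC18, DNAJC19, DNAJC25, DNAJC25-GNG10, DNAJC28 and DNAJC30. Of the residents of the endoplasmic reticulum named at the outset, only DNAJC1 held peaks, and none of them passed. Intron peaks of the chaperone genes numbered 9 in 7 genes, held 2 to 5 fragments each, and none passed.

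By deposited class, the 45 passing chaperone peaks were 22 promoter-class (48.9%, 33.7 to 64.2), 13 3' UTR (28.9%, 16.4 to 44.3) and 10 exon peaks (22.2%, 11.2 to 37.1). Over all 4991 passing peaks in protein-coding genes the shares were 26.5%, 41.3% and 26.8%. The promoter class marks any peak within 3 kb of the start of some gene, snoRNA genes included, wherever it lies in its own gene. Measured instead by distance along the gene, with the strand from RefSeq or the list, 14 of 41 placed passing peaks (34.1%, 20.1 to 50.6) had their summit within 500 bp of the 3' end of their gene, 7 of them 3' UTR and 7 promoter-class. For all protein-coding genes that share was 27.4%. Taking only placed passing lead peaks, 14 of 25 (56%) of the chaperone genes and 32.4% of all genes lay within 500 bp of the 3' end. Chaperone peaks within that distance had a median fold of 3.20 and those farther away 2.13, with 122 and 132 fragments at the median over backgrounds of 31.6 and 71.4. Over all protein-coding genes the medians were 2.60 and 2.34.

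**Figure D4:**
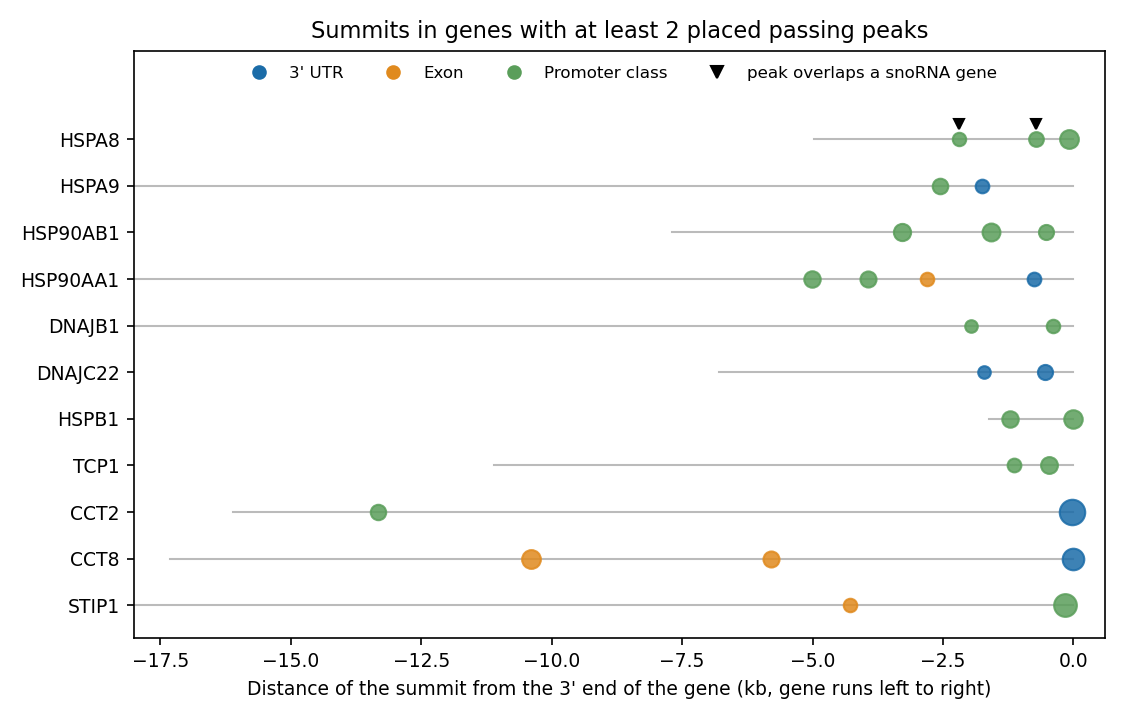
Summits of passing peaks by distance from the 3' end of the gene (kb, gene running left to right, grey line the gene span, cut at the left edge of the plot) for the 11 chaperone genes with at least 2 placed passing peaks. Point area grows with fold, colour gives the class, and triangles mark peaks over a snoRNA gene. CCT2, CCT8, HSPA8, HSPB1 and STIP1 have their highest fold at a summit 8 to 171 bp from the end.

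In 8 of these 11 genes (72.7%) the passing peak nearest the 3' end was also that of highest fold, namely CCT2, CCT8, TCP1, HSPA8, HSPB1, STIP1, DNAJB1 and DNAJC22. The exceptions were HSP90AA1, HSP90AB1 and HSPA9. CCT6A also held 2 passing peaks (3.16 and 2.58), but no strand was found for it, so it was left out of this share. Over all 844 protein-coding genes with at least 2 placed passing peaks the share was 51.8%. The background at chaperone peaks near the 3' end was lower, as given above, and its part in the folds there was not tested. Of the genes with a passing peak, 12 of 28 chaperone genes (42.9%) had 2 or more, against 24.4% of all protein-coding genes.

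A list of 42 co-factors of the same machines, which the symbols above do not take, was set beside them. It was chosen with earlier results of these data known, so its shares are a description only. Of these, 30 held a peak and 19 a passing peak (63.3% of those with a peak, beside 53.2% of all protein-coding genes with a peak), with a median lead-peak fold of 2.22. Of all protein-coding genes, with a peak or without, 18.5% held a passing one. For prefoldin, which hands actin and tubulin to TRiC, 3 of 6 subunits passed, PFDN2 (5.45, 4.15 to 7.04), PFDN5 (2.30) and VBP1 (1.48), and PFDN1 (1.67) did not. HSP90 co-chaperones that passed were NUDC (3.56, 3.05 to 4.12), PTGES3 (p23; 3.41, 2.88 to 4.02), FKBP8 (2.47), CDC37, which loads kinases (2.23), FKBP4 (2.11), PPP5C (1.74), the AAA+ ATPase RUVBL2 (2.91) and the import adaptor TOMM34 (2.89). The HSP70 partners ST13 (2.08), SGTA (2.21), STUB1 (the ubiquitin ligase CHIP; 1.62) and HIKESHI (4.17, over 6 fragments) passed. The chaperones of the nascent chain, NACA (2.78) and BTF3 (4.29, 3.54 to 5.14), passed, as did the TRiC cofactor TXNDC9 (2.71) and GRPEL2, an exchange factor for HSPA9 (2.64). Besides PFDN1, co-factors with only peaks that did not pass were PPID (1.71), SUGT1 (2.50), UNC45A (1.77), TTC4 (2.23), CHORDC1 (1.59) and TOMM70 (1.53). The same was true of RUVBL1 (1.79, over 2 fragments), NUDCD1 (1.97), GRPEL1 (1.32) and CLPB (1.96). No peak was listed for the heat shock factors HSF1 and HSF2, the mitochondrial HSP90 TRAP1, or the proteases LONP1, CLPP and CLPX. FKBP5, RPAP3, PIH1D1, PDCL3, PFDN4 and PFDN6 had none either. Of the endoplasmic reticulum chaperones left out, HSP90B1 (lead peak 2.49) and HSPA5 (1.60) passed, while DNAJB9 (1.36) and DNAJC3 (1.96) did not.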

How the data were processed

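HCCLM3 RNA was measured in 4 libraries, 2 from YTHDF2 RIP and 2 from input. HISAT2, MACS2 and hg38 are named in the submitters' processing notes; no source used here gives versions, options or how libraries were combined. Per the file headers, the deposited list gives a fold enrichment (ratio), −log10 p and −log10 q for each peak, all the authors' values. The authors' deposited score was not used. RIP fragments and background were recovered by solving fold = (k + 1) / (background + 1) together with the Poisson p for a whole number k, which met every −log10 p within 0.000189 and recovered 100% of 2000 peaks made with known numbers. Those 2000 peaks were made with the same formulas. Their recovery checks the solving only, and not whether the peak caller counted whole, unscaled fragments.

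Each peak went to the Entrez gene in its exon or intron annotation, or else to the gene whose span held the summit (preferring a protein-coding gene; ties went to the gene named in the list and last to the smallest span). On other contigs it went to the deposited gene if that held the summit. This matched the deposited gene for 44 of 70 chaperone peaks. Spans and names came from RefSeq, GRCh38.p14. The members and lists were chosen with earlier results of these data known. Every chaperone gene with a peak was named. Among these genes a position was given for at least the lead peak of the 3 strongest in each family by −log10 q. The same was done for chaperone genes with 3 or more peaks or a lead fold of 4 or more. No test across genes was run, since genes are not replicates. The number of peaks and fragments sets the precision, and PCR reads are not independent molecules. Analyses used Python 3.11.15, pandas 2.3.3 and scipy 1.17.1.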

Additional observations from a re-analysis of the deposited data

Results flagged for a closer look

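Some pseudogenes with chaperone symbols held peaks outside the coding genes described. Of 136 pseudogenes with matching symbols, 4 held a peak and 2 a passing one. The share over all pseudogenes was not counted, so these numbers say nothing particular to chaperone pseudogenes. DNAJB6P1 on chromosome 11 had 4.37-fold over 95 fragments (−log10 q 27.5), while DNAJB6 itself had no peak. DNAJC19P9 on chromosome 14 had 3.81-fold over 8 fragments (−log10 q 2.09), while DNAJC19 had no peak. How alike these pseudogenes and their parent genes are in sequence, and how reads were shared between them, was not tested.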

How the results depend on the processing

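No paired analysis was possible because the list holds no value per library, and no library could be left out. The number of chaperone genes with a passing peak (28) ranged from 19 with exon and UTR peaks only to 31 at a q of 0.05, with 23 at a −log10 q of at least 5, 23 with the deposited gene (17 of the 28, and 6 others: DNAJB12, DNAJB14, DNAJC4, DNAJC28, HSPA12A and HSPB9) and 27 on main chromosomes. The median lead-peak fold stayed within 2.27 to 2.97 over these alternatives, but it covers unlike sets of genes. With a changed q it covers only the genes that meet that q. Otherwise it covers all genes with a peak, passing or not, as does the 2.54 of the main setting. Without promoter-class and intron peaks, the 3' UTR share of chaperone peaks was 52.8% in place of 27.1%. This rise follows from taking those classes out of the total, and says nothing further about where the peaks lie. With the deposited gene, 11 co-factors passed in place of 19. Under that gene 9 of the 28 held no peak at all (BAG4, CCT3, CCT4, CCT6A, DNAJC2, HSPA8, HSPD1, HSPE1-MOB4 and TCP1), and HSPA9 and STIP1 held none that passed. The lead fold of STIP1 was 1.49, of CCT2 2.19, of HSPA9 1.48 and of DNAJC5 1.69 (a peak upstream of it), since their strongest peaks bear other names. With the peak of highest fold as lead, that of HSPA4 was 2.61. Leaving out peaks with several candidate genes left 26 passing genes, and peaks of 20 or more fragments 28. Both settings were chosen after seeing the data. Every exon or intron peak counted as having 1 candidate, so HSPE1-MOB4 stayed among the 26.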
